A study of Mus musculus with 102 samples.

Results

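Gene expression in epidermal stem cells was compared between zeitgeber time (ZT) 12 and ZT0 in adult mice under calorie restriction (CR). The members are the samples whose titles name adult animals on the calorie restriction diet at T12 and at T0, 5 arrays each, which makes 10 of the 30 adult CR arrays. The series also holds 23 arrays of adult mice on control diet, 25 of aged CR and 24 of aged mice on control diet. All mice carried the Per1-Venus BAC transgene on the C57B6/J background, a reporter that makes cells fluoresce under control of Per1. The adult CR mice were 47 to 57 weeks old and had received CR food at 30% below the ad libitum intake of the control group for 25 weeks, after 3 weeks of stepwise reduction. The controls used for comparison here were adult mice on control diet ad libitum (4 arrays at each time), aged mice of 83 to 97 weeks under CR (5 arrays at ZT0 and 4 at ZT12) and aged mice on control diet (4 at each time). The other adult CR arrays, taken at ZT4 (6), ZT8 (4), ZT16 (5) and ZT20 (5), served as the times on either side. The labels do not give the sex of the mice or say when the restricted food was given, and they do not state that replicates are separate animals. The p values therefore measure only the spread between these samples, which may be technical in part. The design text speaks of 4 mice per time point and diet and of 1 mouse per diet group killed on each day, all of a single time point, so that day of collection and time point cannot be told apart.

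The circadian clock is a feedback loop in which CLOCK and BMAL1 (the product of Arntl) activate genes through E-box sequences, and the PER and CRY proteins made from those genes shut the activators off again. ZT0 is the time of lights on and ZT12 that of lights off in a standard laboratory cycle, and mice are active in the dark. In epidermal stem cells the clock is known for separating DNA replication and cell division in time, and feeding time and glucocorticoids from the adrenal gland are known to act on clock and metabolic genes in peripheral tissues.

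Of 13383 genes tested with limma, 569 (4.25%) were higher and 215 (1.61%) were lower at ZT12 at an adjusted p under 0.05, together 784 (5.86%). Values are log2 expression levels normalised by RMA, and a difference of 1 is a doubling. Rises made up 72.6% of the called genes (83.6%, 720 against 141, when each array was centred on its median, which moved the median difference of all genes from 0.03 to 0.08). The counts depended on the fit: array weights gave 2399 higher and 879 lower, the level of the dimmest probe sets as a covariate 868 and 333, and a fit of these 10 arrays alone 377 and 217. Past a log2 difference of 1 there were 61 rises and 61 falls. The values of the 5 ZT12 arrays lay wholly above those of the 5 ZT0 arrays for 523 genes (3.91%) and wholly below for 267 (2%). Among the called genes this held for 319 of the 569 and 119 of the 215. The largest rises included the glucocorticoid-responsive genes Tsc22d3 and Fkbp5 and the clock genes Per3 and Per2, and 16 of 24 tested replication genes rose. The falls were led by Ehf, Aadac, Cldn4 and Stx11 and held junction, cornified-layer and stress genes.

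The arrays of the comparison correlated between 0.9495 and 0.9931 with one another, and no 2 were identical. The first principal component of the 10 arrays separated the times without overlap, and ZT0 replicate 3 stood apart on the second (35.4, with the highest of the ZT12 arrays at 9.01). The signal of the Gapdh control probe sets at the 3' end minus the 5' end, a sign of RNA quality, was 0.32 on ZT0 replicates 4 and 5, 0.04 to 0.17 on the other ZT0 arrays and 0.02 to 0.09 at ZT12. For Actin it ranged from -0.21 to -0.10 at ZT0 and from -0.26 to -0.20 at ZT12. ZT0 replicate 4 was the highest array on both measures and the lowest on the first component (-36.9), and the part of RNA quality in the differences between the times was not tested. Without ZT0 replicate 3, 678 genes were higher and 136 lower. The counts also moved by over 1.5 times on leaving out ZT0 replicate 1 (311 higher, 125 lower), ZT0 replicate 4 (216 and 99), ZT12 replicate 1 (354 higher), ZT12 replicate 2 (260 and 139) and ZT12 replicate 3 (117 lower). Xist exceeded the mean of the Y-linked genes on 3 of 5 arrays at each time. The keratinocyte genes Krt5 and Krt14 were near the top of the scale on all 10 arrays (12.22 to 12.55). Col1a1 of fibroblasts (5.40 to 5.99) and Cd3e of T cells (4.49 to 5.10) were low on every array. Means over the tested markers of blood (7.86 to 8.29), melanocytes (6.67 to 7.01) and Langerhans and myeloid cells (6.12 to 6.55) were higher. In these bulk samples, fewer cells of a type and less RNA per cell cannot be told apart.

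The repressor arm of the clock was higher at ZT12. Of 24 genes in the 3 clock lists, 18 were tested, of which 10 rose and 1 fell. Over all genes tested, 4.25% rose and 1.61% fell. Per2 read 5.70, 6.03, 5.58, 6.22 and 6.01 on the ZT0 arrays and 8.49, 7.98, 7.97, 8.03 and 8.13 on the ZT12 arrays. Every ZT12 array lay more than 1 log2 unit above every ZT0 array. The difference was 2.21 ± 0.17 (SE), 4.63-fold, with the smallest adjusted p of all genes (6.53e-18, limma). Per3 ranged from 5.76 to 6.20 at ZT0 and from 8.53 to 9.07 at ZT12, a difference of 2.78 ± 0.29 (adjusted p 9.43e-12, limma). Its other probe sets differed by 1.90, 1.32, 0.78 and 0.28, and the one at 1.32 was nearly as bright (mean level 7.48, the one used 7.52). With the mean of all probe sets Per3 rose by 1.41. Per1, which is both a clock gene and a direct glucocorticoid target, read 7.89, 7.99, 8.28, 8.26 and 8.40 at ZT0 and 9.63, 9.31, 9.61, 9.48 and 9.66 at ZT12. The groups did not overlap, and the difference was 1.38 ± 0.21 (adjusted p 4.53e-06).

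The output factors of the clock that bind D-boxes moved the same way. Dbp read 6.15, 6.20, 5.49, 6.37 and 5.84 at ZT0 and 8.02, 7.77, 8.28, 7.83 and 7.40 at ZT12. The lowest ZT12 array was more than 1 log2 unit above the highest ZT0 array, and Dbp rose by 1.85 ± 0.28 (adjusted p 2.66e-06). Tef rose by 1.58 ± 0.14, from 7.89 ± 0.38 (SD, n = 5) to 9.47 ± 0.17, and Hlf by 1.24 ± 0.17. Sphk2, the sphingosine kinase gene that overlaps Dbp on chromosome 7 in RefSeq (GRCm38.p6), rose by 2.57 ± 0.29, and the genes cannot be told apart where an array probe lies in the shared stretch. That rise rests on the brighter probe set of Sphk2 (mean level 8.20), and the other (7.69) differed by -0.13. Nfil3, a D-box repressor, was 0.73 lower at ZT12 with groups that did not overlap, but did not pass the threshold (adjusted p 0.0883, limma). It was called in 5 of 22 other fits.

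Other repressors rose less. Cry2 ranged from 7.38 to 7.78 at ZT0 and from 8.34 to 8.98 at ZT12 and rose by 1.00 ± 0.17. Nr1d2, a nuclear receptor that represses Arntl, rose by 1.02 ± 0.19, and Ciart, a repressor of CLOCK and BMAL1, by 0.56 ± 0.14. Among the activators, Rora rose by 0.42 ± 0.13 (adjusted p 0.0353, limma), and this call was lost in 6 of the 10 fits that left out 1 array. Arntl read 9.60, 9.01, 9.51, 9.03 and 8.52 at ZT0 and 8.04, 6.01, 6.98, 8.63 and 7.54 at ZT12. The ZT12 arrays were spread over more than 2 log2 units, and the highest of them exceeded the lowest ZT0 array. Arntl fell by 1.70 ± 0.41 (adjusted p 0.00547), and without ZT12 replicate 2 it was no longer called. Clock (-0.05 ± 0.19), Npas2 (-0.30 ± 0.14), Cry1 (-0.18 ± 0.32), Bhlhe40 (-0.53 ± 0.23), Csnk1d (-0.14 ± 0.17) and Csnk1e (0.46 ± 0.16) did not pass. Over 22 other fits Csnk1e was called in 4 and Bhlhe40 in 1. Npas2 has a second probe set nearly as bright (mean level 7.48, the one used 7.79) that differed by -1.34. With the mean of both Npas2 was called at -0.82, and with array weights at -0.38 (adjusted p 0.00299, limma). The sign for Clock turned with the scaling, to 0.0035 with arrays centred on their median.

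Parts of the promoters of clock genes that rose are shown for the sequences through which clock proteins are known to act. Windows of 100 bases before the start site were taken from RefSeq (GRCm38.p6), and capitals mark the E-box CACGTG in Per1, Ciart and Tef and the D-box TTATGTAA in Per3. Each line gives the strand of the gene.
Per1 (chr11:69098736-69098835, plus strand): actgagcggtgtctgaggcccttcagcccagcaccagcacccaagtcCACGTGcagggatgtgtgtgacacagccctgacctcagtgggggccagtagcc
Ciart (chr3:95882256-95882355, minus strand): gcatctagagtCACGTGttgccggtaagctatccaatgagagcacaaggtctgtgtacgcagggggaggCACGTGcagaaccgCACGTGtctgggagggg
Tef (chr15:81802499-81802598, plus strand): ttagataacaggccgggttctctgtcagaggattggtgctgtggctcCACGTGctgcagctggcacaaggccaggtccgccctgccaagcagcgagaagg
Per3 (chr4:151044794-151044893, minus strand): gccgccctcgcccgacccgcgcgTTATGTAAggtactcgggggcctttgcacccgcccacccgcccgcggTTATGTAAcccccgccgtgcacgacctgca
Per1 held 1 E-box 166 bases before its start site, Ciart 3 between 116 and 44 bases before it, Tef 1 at 127 bases, and Per3 2 D-boxes at 205 and 158 bases. Both strands were searched over 250 bases before to 50 after each start. Of all 32851 promoters, 7.15% held CACGTG and 0.938% held TTATGTAA. Of the 10 clock genes that rose, 9 had a promoter in the table, of which 3 held an E-box and 1 a D-box. Counting genes rather than promoters, an E-box was found for 16.4% of the genes that rose (77 of 470 with a promoter), 11% of those that fell (18 of 164) and 11.1% of all tested genes. A D-box was found for 0.638% of the genes that rose (3 of 470), 0 of the 164 that fell and 0.681% of all tested genes. A match describes these letters only and is not a measured binding site.

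**Figure D1:**
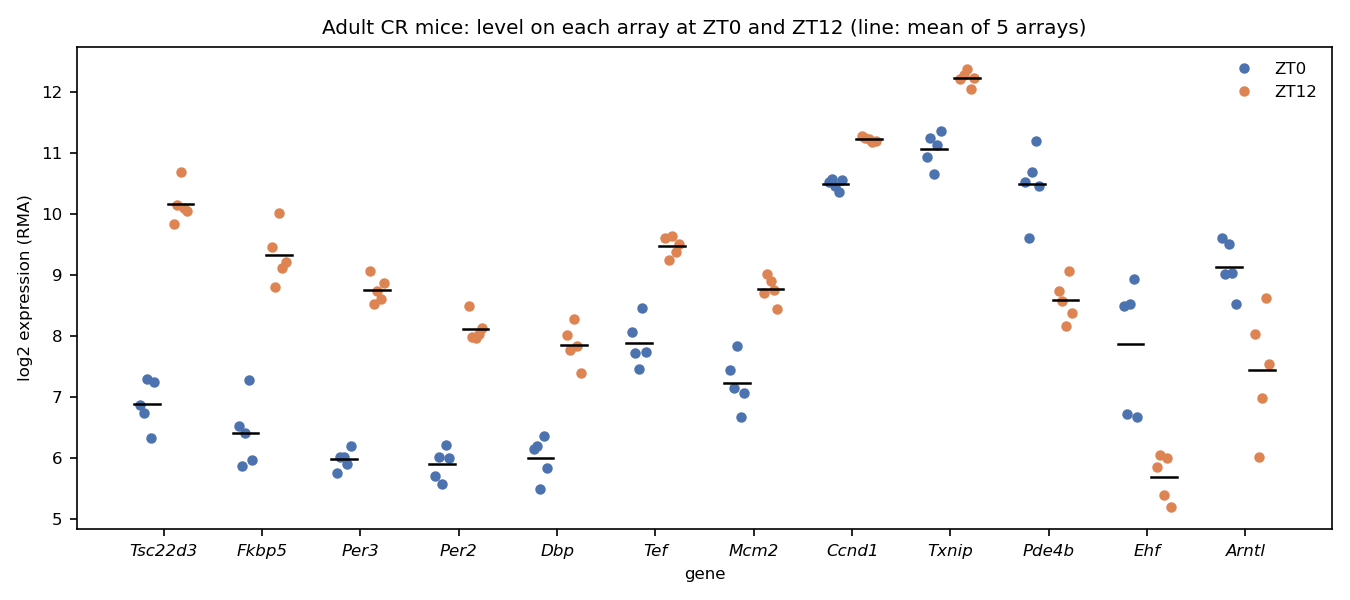
Log2 expression (vertical axis) of 12 genes (horizontal axis) on each of the 5 ZT0 arrays (blue) and 5 ZT12 arrays (orange) of adult CR mice, with a line at each mean. The points of the times do not overlap for 11 genes, whereas those of Arntl overlap and are spread widely at ZT12. Except for Ccnd1, Txnip and Arntl, the genes are among the largest changes, which were chosen for groups without overlap.

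Genes known to be induced by glucocorticoids held the largest rises of the comparison when the brightest probe set stood for each gene. Tsc22d3, which encodes the glucocorticoid-induced leucine zipper GILZ, read 6.87, 6.75, 7.29, 6.32 and 7.25 at ZT0 and 9.83, 10.14, 10.69, 10.10 and 10.04 at ZT12. The lowest ZT12 array exceeded the highest ZT0 array by more than 2 log2 units. The rise of 3.27 ± 0.26 (9.62-fold, adjusted p 2.11e-17, limma) was the largest of all called genes by the brightest probe set. The dimmer probe set of Per2 (mean level 6.55, the one used 6.95) differed by 3.87. With the mean of all probe sets Per2 rose by 3.04 and Tsc22d3 by 2.40. Fkbp5, a cochaperone that restrains the glucocorticoid receptor, read 6.53, 5.88, 6.41, 7.29 and 5.97 at ZT0 and 9.46, 8.81, 10.02, 9.11 and 9.22 at ZT12. These groups were also apart, and the rise was 2.91 ± 0.33 (7.50-fold, adjusted p 2.85e-10). Zbtb16, a zinc finger repressor, rose by 1.35 ± 0.31 (adjusted p 0.00296), with ZT12 replicate 2 at 9.61 below the other 4 ZT12 arrays, which lay between 10.53 and 10.83.

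The rest of the list did not move as far. Of 14 tested members 5 rose and none fell (4.25% and 1.61% of all genes tested). The list's median was 0.14 (0.03 over all genes tested). Mt1, a metallothionein, rose by 0.22. Ddit4 (0.83) and Klf9 (0.47) did not pass, and Sgk1 (-0.18), Cebpd (-0.06), Dusp1 (0.06) and Lcn2 (-0.16) were near 0. Leaving out 1 array at a time gave 4 to 6 members higher. The list was drawn up with earlier results of these data known.

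Both genes were high at all other sampled times. In adult CR, Tsc22d3 averaged 6.90 at ZT0 and 9.59, 9.80, 10.16, 9.80 and 9.48 at ZT4, ZT8, ZT12, ZT16 and ZT20. It was thus low at a single sampled time. Fkbp5 averaged 6.41 at ZT0 and between 8.38 and 9.32 at the other 5 times. Against the mean of ZT20 and ZT4, ZT0 was lower by 2.64 ± 0.22 for Tsc22d3 (adjusted p 8.22e-16, limma) and by 2.41 ± 0.28 for Fkbp5 (adjusted p 3.07e-09). Per2 had another course, with means of 5.91 at ZT0, 7.01 at ZT4, 8.15 at ZT8, 8.12 at ZT12, 6.86 at ZT16 and 6.35 at ZT20. Dbp peaked at ZT8 (9.42) and was back at 6.00 by ZT16, close to its ZT0 level of 6.01. Arntl was lowest at ZT8 (6.42) and high at ZT16, ZT20 and ZT0 (8.90, 8.99 and 9.14).

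**Figure D2:**
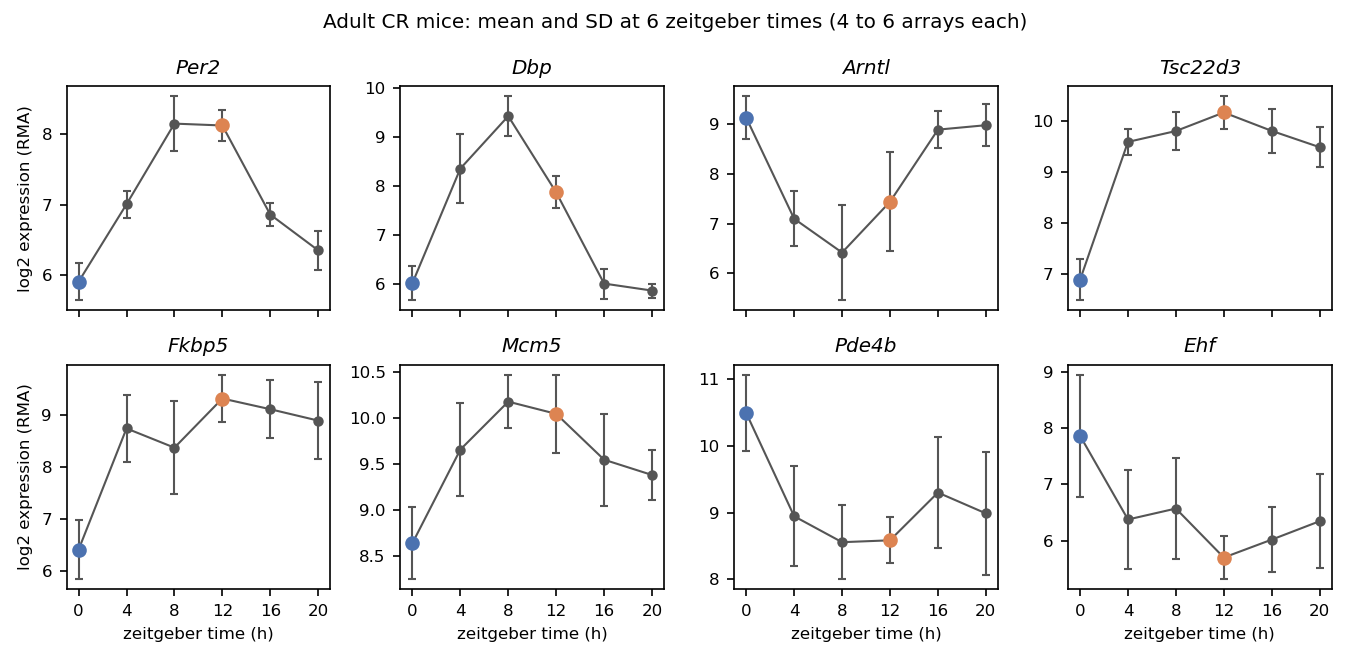
Mean log2 expression with SD (vertical axis) at 6 zeitgeber times in hours (horizontal axis) in adult CR mice, 4 to 6 arrays per time, for 8 genes. The blue point is ZT0 and the orange point ZT12; Tsc22d3 is low at ZT0 (6.90) and between 9.48 and 10.16 at the other times, whereas Per2 and Dbp rise to ZT8 and fall again.

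Of all genes, 169 (1.26%) differed between ZT0 and the mean of ZT20 and ZT4 (75 higher and 94 lower at ZT0). Between ZT12 and the mean of ZT8 and ZT16, 0 (0%) differed in limma. There, 646 (4.83%) had an unadjusted p under 0.05, close to the share expected where no gene differs. The first count was 54 without ZT0 replicate 1, 40 without ZT0 replicate 4, 289 without ZT20 replicate 1 and 112 without ZT20 replicate 3, and the second was 2 without ZT12 replicate 5 or without ZT16 replicate 4. Array weights gave 2227 and 71. The first count was also 341 after quantile normalization, 346 with the level of the dimmest probe sets as a covariate and 108 with only the arrays compared, and the second 1 without a filter and 2 with the mean of all probe sets. These comparisons share arrays with ZT12 against ZT0. The difference from ZT0 to ZT12 is the sum of 3 steps, from ZT0 to the mean of ZT20 and ZT4, from there to the mean of ZT8 and ZT16, and from there to ZT12. A 24 h cosine peaking at ZT12 would put 25%, 50% and 25% of its range in the steps. For the 569 genes that rose, the median shares were 56.5%, 7.24% and 35.7%, and for the 215 that fell they were 70.7%, 10.2% and 18.2%. The first step was the largest for 412 of the 569 and 184 of the 215. The first and the last step use the arrays that chose the genes, so these shares are a description. For the 10 clock genes that rose the medians were 44.1%, 31.6% and 26.4%, for 16 replication genes 61.1%, 19.5% and 21.8%, and for the 5 glucocorticoid-induced genes 82.8%, 1.49% and 11%.

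**Figure D3:**
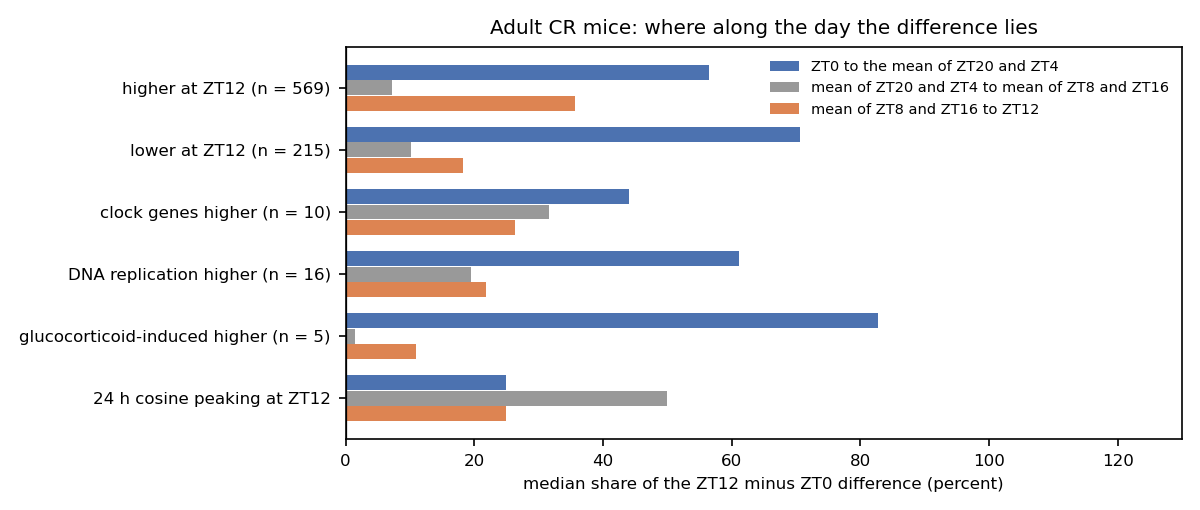
Median share in percent (horizontal axis) of the ZT12 minus ZT0 difference that lies in each of 3 steps along the day, for sets of called genes in adult CR mice (vertical axis, n genes) and for a 24 h cosine peaking at ZT12. The step next to ZT0 (blue) holds 82.8% for the 5 glucocorticoid-induced genes and 44.1% for the 10 clock genes, against 25% for the cosine.

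The middle step is a comparison of arrays that the ZT12 against ZT0 contrast did not use. Between the means of ZT8 and ZT16 and of ZT20 and ZT4, 3 genes were higher (0.0224% of those tested) and 0 lower (0%) in limma. In either direction 285 (2.13%) had an unadjusted p under 0.05, fewer than expected where no gene differs. The count of lower genes was 2 without ZT4 replicate 5 and 1 without ZT8 replicate 4. The 3 genes were Per2 (0.82), Tef (0.48) and Mthfd1l (0.47), an enzyme of mitochondrial folate metabolism that was singled out because it passed here. All 3 were also among the 569. Of the 569, 65.9% were above 0 in these arrays (45.4% of all genes), and of the 215, 74.9% were below 0 (54.6% of all genes). Median differences were small, 0.04 for the genes that rose and -0.07 for those that fell. Dab1, a signalling adaptor of the reelin pathway, had a larger middle step (-0.72, not called). It ranged from 8.90 to 9.32 at ZT0 and from 7.18 to 8.01 at ZT12, fell by 1.45 ± 0.25 (adjusted p 4.69e-05, limma), and averaged 9.17 at ZT20 against 9.16 at ZT0.

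DNA replication genes rose as a group. Of 24 tested, 16 rose and none fell, where 4.25% of all genes tested rose and 1.61% fell. All 24 differences were above 0, and the median was 0.74 (0.03 over all genes). This list, like the others, was drawn up with earlier results of these data known. Among the subunits of the MCM helicase, which unwinds DNA at replication origins, Mcm2 read 7.44, 7.16, 7.83, 6.68 and 7.06 at ZT0 and 8.70, 9.02, 8.90, 8.76 and 8.44 at ZT12. The groups did not overlap, and Mcm2 rose by 1.53 ± 0.26 (2.89-fold, adjusted p 3.82e-05). Mcm5 read 8.62, 8.67, 9.27, 8.26 and 8.39 at ZT0 and 10.22, 10.48, 10.22, 9.95 and 9.37 at ZT12, the lowest ZT12 array just above the highest ZT0 array, and rose by 1.40 ± 0.25. Mcm3 rose by 1.39, Mcm6 by 1.15, Mcm4 by 1.03 and Mcm7 by 0.65.

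The other rises covered most steps of replication. The GINS subunits Gins1 (1.05) and Gins2 (0.95), the polymerase epsilon genes Pole (0.93) and Pole2 (1.13), the primase Prim1 (0.82), the ligase Lig1 (0.97), the clamp loader genes Rfc4 (0.76) and Rfc3 (0.57), and the nucleotide enzymes Tyms (0.73) and Rrm1 (0.63) passed. Pola1 (0.59), Cdt1 (0.42), Pcna (0.27), Fen1 (0.27), Mcm10 (0.26), Cdc45 (0.25), Gins3 (0.19) and Rrm2 (0.13) did not. Leaving out 1 array gave 11 (ZT12 replicate 2) to 17 members higher. In the 4 flanking groups the list's median was 0.15, and no member passed there. Mcm5 averaged 8.64 at ZT0, 9.66 at ZT4, 10.18 at ZT8, 10.05 at ZT12, 9.55 at ZT16 and 9.38 at ZT20.

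E2F proteins are the transcription factors known for switching on replication genes at the start of S phase, and windows before the start sites of MCM genes that rose are shown with their typical letters, TTTCCCGC or TTTGGCGC on either strand, in capitals (RefSeq, GRCm38.p6).
Mcm6 (chr1:128359731-128359830, minus strand): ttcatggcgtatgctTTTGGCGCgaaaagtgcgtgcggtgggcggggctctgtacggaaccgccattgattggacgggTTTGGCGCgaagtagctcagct
Mcm7 (chr5:138171995-138172094, minus strand): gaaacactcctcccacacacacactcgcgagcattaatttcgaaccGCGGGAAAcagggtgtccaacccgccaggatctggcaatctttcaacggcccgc
Mcm6 held 2 matches, 110 and 47 bases before its start site, and Mcm7 held 1 on the other strand at 165 bases. A match was found for 6 of the 12 replication genes that rose and had a promoter in the table. It was found for 6.6% of all genes that rose, 1.83% of those that fell and 3.02% of all tested genes, and in 1.56% of all promoters.

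Regulators of entry into S phase moved with them in part. Ccnd1, which encodes cyclin D1, read 10.53, 10.58, 10.46, 10.37 and 10.55 at ZT0 and 11.28, 11.24, 11.22, 11.17 and 11.19 at ZT12. Both groups were tight and far apart, and Ccnd1 rose by 0.72 ± 0.08 (1.65-fold, adjusted p 2.85e-10). Ccnd2 rose by 0.73 ± 0.15 and E2f1 by 0.41 ± 0.12, and the kinase inhibitor Cdkn2c fell by 0.42 ± 0.12. The other 13 of 17 tested G1/S regulators did not pass, and the median was 0.10. The E2f1 call was lost without ZT0 replicate 1, ZT0 replicate 4 or ZT12 replicate 3, and that of Cdkn2c without ZT0 replicate 3, 4 or 5 or ZT12 replicate 1 or 5.

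Most genes of mitosis lay below 0. Of 23 tested, 21 were below 0 and the median was -0.40, but only Cenpa, a centromeric histone, fell (1.05 ± 0.33 lower, adjusted p 0.0361, limma), a call lost in 8 of the 10 fits without 1 array. Mki67, a marker of cycling cells, read 9.28, 9.44, 9.63, 8.55 and 9.24 at ZT0 and 8.66, 8.83, 8.63, 8.72 and 8.68 at ZT12. ZT0 replicate 4 was the lowest of all 10 arrays, the other ZT0 arrays lay above every ZT12 array, and the difference of -0.52 ± 0.20 did not pass (adjusted p 0.112). Wee1, the kinase that holds back entry into mitosis and a known clock target, ranged from 9.57 to 9.98 at ZT0 and from 10.58 to 10.84 at ZT12 and rose by 0.96 ± 0.16 (adjusted p 1.47e-05). In the flanking groups the median of the mitosis list was -0.38. Of 20 DNA repair genes tested, 5 rose, beside 4.25% of all genes, and none fell (median 0.34). The 5 were Ung (1.12), Chek1 (0.96), Atm (0.78), Rad50 (0.75) and Brca1 (0.73). That count was 3 without ZT0 replicate 4 or ZT12 replicate 2, which ended the calls of Ung and Brca1. Ung lost its call in 6 of the 10 fits, also without ZT0 replicate 1 or 2 or ZT12 replicate 1 or 3.

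Genes of insulin and FOXO signalling that passed all rose. Txnip, which restrains glucose uptake, read 10.94, 11.25, 10.66, 11.13 and 11.36 at ZT0 and 12.20, 12.28, 12.38, 12.05 and 12.22 at ZT12. The groups did not overlap, and Txnip rose by 1.16 ± 0.21 (2.23-fold, adjusted p 0.000143). The insulin receptor substrate Irs1 rose by 0.92 ± 0.27, the regulatory subunit gene Pik3r1 by 0.80 ± 0.25, and Klf15 by 0.32 ± 0.10. Of 17 tested members 4 rose and none fell (4.25% and 1.61% of all genes tested), with a median of 0.28. The count was 2 without ZT0 replicate 1 or 4 or ZT12 replicate 1 or 2, and 1 without ZT0 replicate 5 or ZT12 replicate 3, with Txnip called in each fit. Ppara, the fasting-responsive receptor of fatty acids, rose by 0.99 ± 0.20, whereas the thioesterase Acot1 fell by 1.11 ± 0.27. Of 21 genes of oxidative phosphorylation and 15 of glycolysis, 0 passed in limma. The medians were 0.13 and 0.05, and the members nearest to passing were Uqcrc1 (0.26) and Hk2 (-0.99, adjusted p 0.109). Over 22 other fits Hk2 was called in 4 and Uqcrc1 in 0.

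Lipid synthesis leaned to lower values. Of 16 cholesterol synthesis genes tested, 15 were below 0 (median -0.34). Sc5d (-0.80 ± 0.23) and Fdft1 (-0.51 ± 0.15) fell, where 1.61% of all genes tested fell. Sqle (-1.25) and Insig1 (-1.30) had larger differences that did not pass. The count was 3 without ZT0 replicate 2 and 0 without ZT0 replicate 1, 3 or 4 or ZT12 replicate 3 or 5.

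Among the largest falls, Ehf, an epithelial transcription factor of the ETS family, read 8.49, 6.72, 8.53, 8.93 and 6.67 at ZT0 and 5.85, 6.05, 5.40, 6.00 and 5.20 at ZT12. At ZT0, replicates 2 and 5 lay well below the other 3, and all 5 were above every ZT12 array. Ehf fell by 2.17 ± 0.42 (4.50-fold lower, adjusted p 0.000268). Pde4b, a phosphodiesterase that breaks down cAMP, read 10.53, 9.61, 10.68, 11.20 and 10.46 at ZT0 and 8.74, 8.57, 8.16, 9.07 and 8.38 at ZT12. It fell by 1.91 ± 0.39 and averaged 8.56 to 9.30 at the other 5 times, against 10.50 at ZT0. Aadac, a lipid hydrolase, fell by 2.06 ± 0.38, and Stx11, a syntaxin of vesicle fusion, by 1.92 ± 0.43.

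The glutamate transporter Slc1a1 (-1.83), the kinase Map3k8 (-1.57), the defensin Defb6 (-1.57), the acyl-CoA ligase Acsl4 (-1.55), Tsc22d2 (-1.54), Rasgef1b (-1.33), the miRNA host gene Mir17hg (-1.32), the transporter Slc16a14 (-1.31) and Herc4 (-1.30) completed the list with Dab1 and Sox9. ZT0 replicates 2 and 5 were also the lowest ZT0 arrays for Stx11 (6.94 and 6.88, where the others were 8.22 to 8.84), Slc1a1 (5.12 and 5.32 against 6.68 to 8.06) and Mir17hg (5.54 and 5.47 against 6.05 to 7.11). With 1 array left out or another setting, between 5 and 9 of 22 fits (21 for Mir17hg) did not call Defb6, Acsl4, Tsc22d2, Mir17hg, Slc16a14 or Herc4.

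Large rises outside the clock and glucocorticoid lists included Hes7, a Notch-related repressor, Tent5b, a poly(A) polymerase family member, and Slc43a1, an amino acid transporter. Slc43a1 read 5.66, 5.59, 5.56, 5.47 and 5.56 at ZT0, nearly equal values, and averaged 7.48 at ZT12 with a highest array of 7.97. The groups did not overlap, and the rise was 1.91 ± 0.29 (3.75-fold). Tent5b rose by 1.93 ± 0.32 and Hes7 by 2.14 ± 0.63, the latter with 4.72 on ZT0 replicate 4 and 6.92 on ZT12 replicate 2, each well below its group. Rfx2, a transcription factor of ciliary genes, rose by 1.76 ± 0.31, and Tppp3, a tubulin-binding protein, by 1.64 ± 0.28.

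Genes of the outer, differentiating layers of the epidermis fell where they passed, except for 1. Of 19 suprabasal and cornified genes tested, 16 were below 0 (median -0.40). Klk7 (-0.96), Sprr1b (-0.85), Ivl (-0.53) and Dsc1 (-0.43) fell, where 1.61% of all genes tested fell. Tgm3, a transglutaminase of the cornified layer and hair, read 8.22, 8.80, 8.60, 7.76 and 8.56 at ZT0 and 10.37, 10.26, 9.99, 9.96 and 9.44 at ZT12. It rose by 1.62 ± 0.27 (adjusted p 3.25e-05) without overlap of the groups. The count of falls ranged from 0 (without ZT12 replicate 3) to 6 (without ZT0 replicate 2) and was 1 without ZT0 replicate 1, 3, 4 or 5 or ZT12 replicate 1 or 2, and 2 without ZT12 replicate 5. The main keratins of that compartment, Krt1 (-0.06) and Krt10 (-0.13), did not pass. In the basal layer, Trp63 (0.40), Dst (0.33) and Krt15 (0.26) rose, and 14 of 17 tested members were above 0 (median 0.20). Over 22 other fits the basal call was lost in 4 for Trp63, among them that without ZT0 replicate 4. For Krt15 it was lost in 3, among them that without ZT12 replicate 2. The dimmer probe sets of Trp63 differed by 0.18, 0.55 and -0.19 (mean levels 10.74, 10.64 and 6.05, the one used 11.59). Dst was not called with only the arrays compared (adjusted p 0.104, limma), with the replicate block added to that fit (0.168) or with the mean of its 4 probe sets (difference 0.11, adjusted p 0.692), of which the dimmer ones differed by 0.54, -0.35 and -0.09.

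Junction and bulge genes that passed mostly fell. Beside their counts, 1.61% of all genes tested fell and 4.25% rose. Cldn4, a tight junction claudin, read 9.22, 7.05, 9.44, 10.25 and 8.40 at ZT0 and 7.99, 7.09, 6.44, 7.81 and 5.24 at ZT12. The groups overlapped through ZT0 replicate 2, and Cldn4 fell by 1.96 ± 0.58 (adjusted p 0.027), a call lost in 6 of the 10 fits without 1 array. Gjb2, a connexin, fell by 0.58 ± 0.11 and Cdh1, which encodes E-cadherin, by 0.59 ± 0.16, both without overlap. Dsc3 fell by 0.42 ± 0.12, a call lost in 4 of the 10 fits. The other probe set of Dsc3 (mean level 10.21, the one used 10.36) differed by -0.12. The desmoglein Dsg2 rose by 0.41, a call that held without ZT0 replicate 2 and was lost in the other 9 of the 10 fits. Of 16 junction genes 4 fell and 1 rose, with 1 to 6 falls on leaving out 1 array (6 without ZT0 replicate 2 or 5, 2 without ZT0 replicate 1 or ZT12 replicate 2 or 3, 1 without ZT0 replicate 4). Of 12 bulge stem cell genes tested, Sox9 (-1.29), Foxc1 (-0.98) and Grem1 (-0.67) fell and Krt15 rose. Grem1 lost its call in 8 of the 10 fits without 1 array and Sox9 in 4, and the count of falls was 1 without ZT0 replicate 1 or ZT12 replicate 3 or 5 and 2 without ZT0 replicate 2, 3, 4 or 5 or ZT12 replicate 1 or 4.

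Markers of sebaceous and Merkel cells moved beside these falls. Of 7 tested, Krt79 (-1.47) and Mgst1 (-1.02) fell, where 1.61% of all genes tested fell. Neither was called without ZT0 replicate 3, 4 or 5 or ZT12 replicate 1, 3 or 5, and 1 of them was called without ZT0 replicate 1 or ZT12 replicate 4. The mean over the list ranged from 5.84 to 6.17 at ZT0 and from 5.49 to 5.88 at ZT12. The part of such cells in the falls was not tested. No marker of lymphocytes (8 tested), Langerhans and myeloid cells (11), melanocytes (3), fibroblasts (6), endothelium (4), muscle and fat (4) or blood (3) passed in limma, and the ranges of their list means overlapped between the times. These misses depended on the fit. Over 22 other fits, Hba-a1 of blood was called in 4, Thy1 of lymphocytes in 3 and Mitf of melanocytes in 3. Epcam of the Langerhans and myeloid list was called in 1. None of these calls came from leaving out 1 array.

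Stress genes went both ways. Beside the counts given here, 5.86% of all genes tested passed. Among 15 p53 targets tested, the growth arrest gene Gadd45a (-1.49), Sesn2 (-1.21), Plk2 (-0.98) and the death-promoting gene Bbc3 (-0.41) fell, whereas Trp53inp1 (1.00) and Ccng1 (0.62) rose. The median was -0.01. Falls numbered 1 without ZT0 replicate 1 or 4 or ZT12 replicate 3 or 5 and 2 without ZT0 replicate 3 or ZT12 replicate 2, while rises numbered 0 without ZT0 replicate 1 and 1 without ZT0 replicate 4 or ZT12 replicate 1, 2, 3 or 5. In the unfolded protein response, Herpud1, which serves protein degradation at the endoplasmic reticulum, ranged from 9.51 to 9.86 at ZT0 and from 10.26 to 10.69 at ZT12. It rose by 0.84 ± 0.13 (adjusted p 4.99e-06), the chaperone gene Calr fell by 0.77 ± 0.24, and 17 of 19 did not pass. The Calr call was lost in 6 of the 10 fits without 1 array, among them those without ZT0 replicate 1, 3, 4 or 5 and ZT12 replicate 1 or 2.

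**Figure D4:**
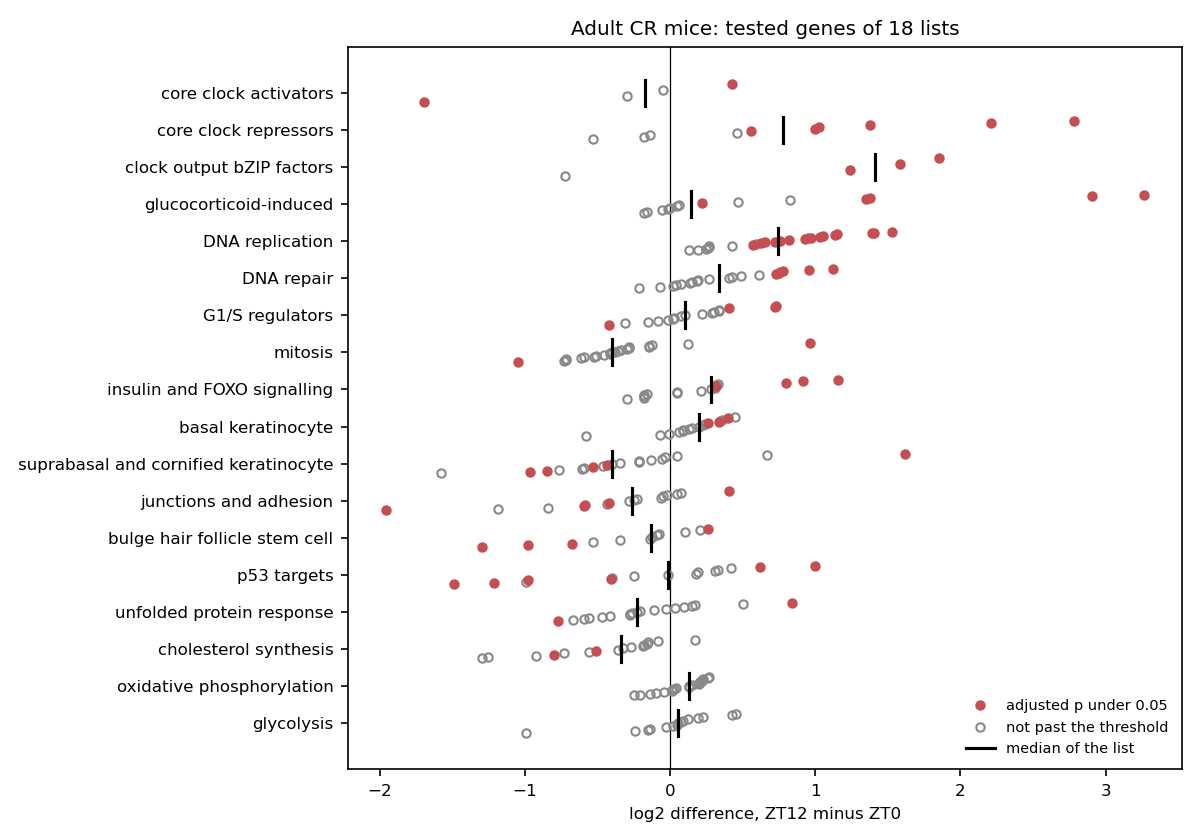
Log2 difference, ZT12 minus ZT0 (horizontal axis), of each tested gene of 18 lists (vertical axis) in adult CR mice; red points passed an adjusted p under 0.05, open points did not, and black bars are medians. All 24 replication genes lie above 0 (median 0.74), and 21 of 23 mitosis genes lie below it (median -0.40).

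The same times were compared in the other conditions, none of which shares arrays with adult CR. In adult mice on control diet, 2551 genes were higher (19.1%) and 837 lower (6.25%) at ZT12, in aged CR 672 (5.02%) and 376 (2.81%), and in aged mice on control diet 423 (3.16%) and 266 (1.99%). With only the arrays of each comparison in the fit, which then shares no spread with other groups, the totals were 223 in adult controls, 9 in aged CR and 1399 in aged controls, so the order of the conditions by count depended on the fit. In aged controls array weights gave 2478 and the covariate of dim probe sets 1551. The counts rest on 4 or 5 arrays a group and moved by over 1.5 times when the arrays named in the closing section were left out. Of the 569 genes that rose in adult CR, 416 (73.1%) rose in adult controls, where they were 16.3% of the rises, and 275 (48.3%) in aged CR, where they were 40.9%. In aged controls 251 (44.1%) of them rose, which were 59.3% of the rises there. Of the 215 that fell, 123 (57.2%), 104 (48.4%) and 91 (42.3%) fell in the 3 conditions, where they were 14.7%, 27.7% and 34.2% of the falls. Over 13383 genes the differences correlated with those of adult CR at 0.705, 0.729 and 0.805, as a description across genes, which are not independent. Adult mice of both diets were killed on the same days if the scheme of the design text was kept, so effects of a day could be shared between diets.

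No gene was called for a difference of its ZT12 minus ZT0 value between the diets in adult mice (0 called, 0%, smallest adjusted p 0.165, limma). Between adult and aged CR mice none was called either (0 called, 0%, limma). Unadjusted p values under 0.05 were found for 1369 genes (10.2%) for diet and 318 (2.38%) for age. The diet count was 94 without adult control ZT0 replicate 3 and 44 without adult control ZT0 replicate 4. It was 2 after quantile normalization and 1373 with array weights, which also gave 7 genes for age. Tsc22d3 rose by 3.27 in adult CR, 3.16 in adult controls and 2.87 in aged CR. Per2 rose by 2.21, 2.15 and 2.04. Arntl differed by -1.70, -2.43 and -0.44, and its difference in aged CR did not pass (adjusted p 0.59), although the difference between the ages was itself not called. Rfx2 rose by 1.76 in adult CR and 1.07 in aged CR and was at -0.06 in adult controls. Mcm2 rose by 1.53 in adult CR and 1.78 in adult controls, and was 0.80 in aged CR (adjusted p 0.059). A miss of the threshold does not show that the differences were alike.

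The 4 genes nearest to passing for diet were Zdhhc13 (0.25 in adult CR, -0.55 in adult controls), Lsm7 (-0.16 and 0.68), Hnrnpr (-0.16 and 0.51) and Chac1 (-0.66 and -2.69). For age they were Aars (-0.24 in adult CR, -1.07 in aged CR), Has1 (-0.60 and 0.11), Ppp1r14c (0.29 and -0.38) and Tcte3 (0.14 and -0.28). Of these 8, Has1, a hyaluronan synthase, was the only one called in adult CR itself.

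**Figure D5:**
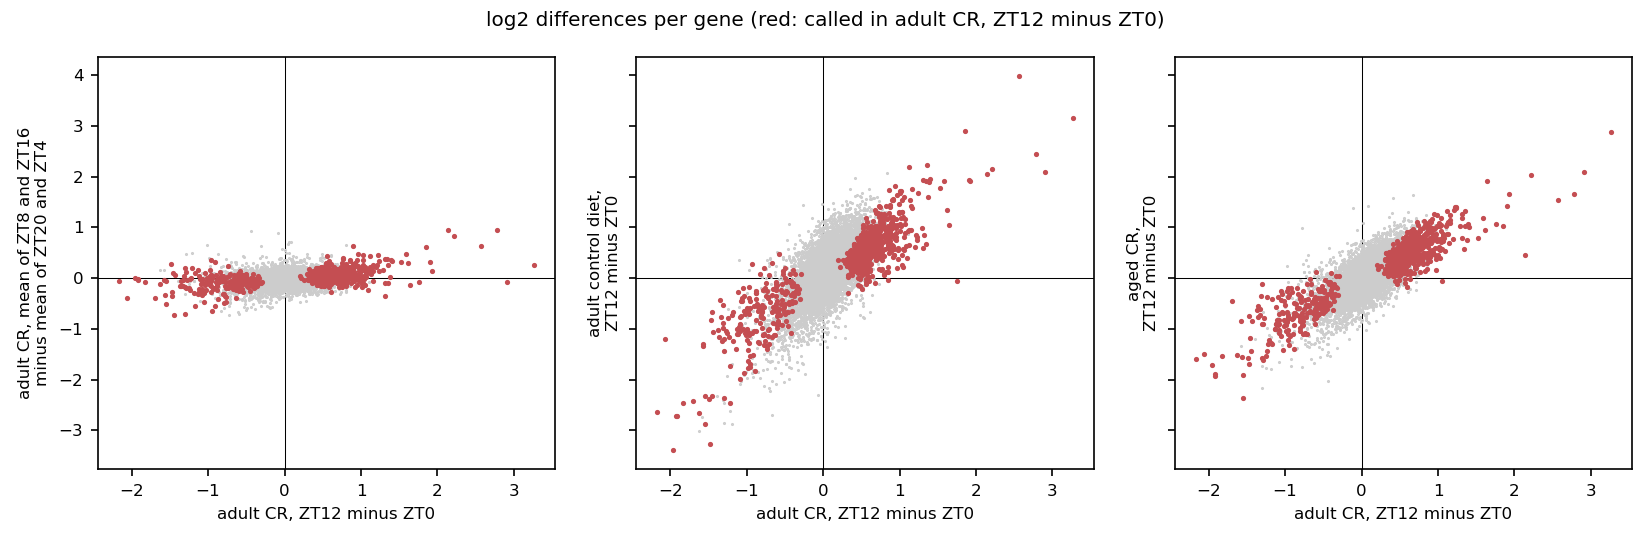
Log2 difference of each of 13383 genes in adult CR mice, ZT12 minus ZT0 (horizontal axis), against the difference between the flanking times of adult CR, and against ZT12 minus ZT0 in adult controls and in aged CR (vertical axes). Red points are the 784 genes called in adult CR. Of the 569 rises, 97.9% are above 0 in adult controls (61.2% of all genes) and 98.4% in aged CR (55.3%). At the flanking times 65.9% of the rises are above 0 (45.4% of all genes).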

How the data were processed

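Total RNA of epidermal stem cells was hybridised to Affymetrix mouse arrays after amplification of cDNA, per the labels' protocols. Expression levels on the log2 scale were deposited by the authors after RMA, per the submitters' processing notes, whose version is not given in the sources used here. They were used as deposited. Array medians lay between 5.466 and 5.714 over all arrays. RMA pulls the arrays to a common distribution, and dim probe sets understate a change. The number of arrays limits the precision.

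Of 45140 probe sets, 28898 carried 1 gene symbol, 551 several and 15691 none. The brightest probe set stood for a gene, and genes with a mean under the 30th percentile of probe sets (4.735) were left out, which left 13383. A limma 3.58.1 model (R 4.3.3) gave each of 24 groups a mean, with the spread shared by all arrays, and p values were adjusted by the Benjamini-Hochberg method over all genes tested. Genes called have an adjusted p under 0.05, and errors after ± are standard errors unless marked SD.

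Tested on simulated data of the ZT12 against ZT0 comparison over 13383 genes, the fit recovered 92% of log2 changes of 1 and 44% of changes of 0.5, and 6.722% of calls were false. The simulated noise was normal, independent between genes and equal on all arrays, and fewer genes were changed than were called here. The real arrays differed, with weights from 0.334 (ZT0 replicate 3) to 3.84 (ZT0 replicate 1), so these shares may not hold for them. Named genes are the 15 largest rises and 15 largest falls whose groups did not overlap, all tested clock genes, up to 4 called members of each of 43 lists (537 of 672 genes tested) or the 1 with the smallest p, and the genes nearest to passing in the tests of a difference. Other genes named were picked from their lists after their values were seen. Members and lists were chosen with earlier results of these data known. Replicate numbers were checked for pairing, and correlations of same-numbered arrays ranged from -0.292 to 0.382, so samples were not paired. Promoter sequences came from RefSeq (GRCm38.p6). Alternatives covered the arrays entering the fit, scaling, the filter, the choice of probe set, the variance model, array weights, covariates, the replicate block and leaving out each array.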

Additional observations from a re-analysis of the deposited data

Results flagged for a closer look

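In groups of 5 arrays, an array was singled out when its gap to the nearest other array exceeded 0.71 of the group's range, a rule by which chance marks about 1 in 20 groups. It marked 15 of 240 groups of named genes (6.25%). ZT12 replicate 2 was marked for 5 genes: it was lowest for Hes7 (6.92), Zbtb16 (9.61) and Dll1 (9.38), and highest for Foxc1 (5.25) and Grem1 (7.27). ZT0 replicate 3 was marked for 4 genes, with high values of Chek1 (5.69), Sod2 (10.06) and Mgst1 (6.92) and a low value of Tcte3 (4.74). ZT0 replicate 4 was lowest for Hes7 (4.72), Uqcrc1 (9.48) and Hnrnpr (9.31). ZT0 replicate 5 was lowest for Ccnd2 (10.91), ZT0 replicate 2 for Krt79 (8.49) and ZT12 replicate 5 for Tent5b (8.57).

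Probe sets without a gene symbol were not part of the comparison of genes. Of 9567 such probe sets above the same filter, 788 (8.24%) were called between ZT12 and ZT0 in limma, 192 higher and 596 lower at ZT12. Their direction was thus mostly lower, whereas genes with a symbol were mostly higher.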

How the results depend on the processing

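Of the 94 named genes that were called, 44 kept their call in every setting run. Over 1426 values of named genes under alternatives, 1326 stayed on their side of the threshold with the same sign, 65 lost and 32 gained a call, and 3 turned sign. Over 1200 values with 1 array left out, 973 stayed, 218 lost and 8 gained a call, and 1 turned sign. The signs that turned were those of Clock (0.0035 with median centring, 0.0417 with array weights, and -0.0979 to 0.0455 on leaving out 1 array, the highest without ZT0 replicate 3) and Lsm7 (0.0043 with array weights), neither of them called. The causes of the changes below were not tested.

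With only the arrays of the groups compared, 377 genes rose, and the counts were 223 in adult controls, 9 in aged CR, 1399 in aged controls and 108 for ZT0 against its neighbours. Median centring gave 141 falls. Quantile normalization gave 1 lower gene at the flanking times, 2 for the diet difference and 341 for ZT0. ZT12 against its neighbours gave 1 gene without a filter and 2 with the mean of all probe sets. Array weights gave 2399 rises and 879 falls, 7 and 2 at the flanking times, 2478 in aged controls, 1373 for diet, 7 for age, 2227 for ZT0 and 71 for ZT12. With the level of the dimmest probe sets as a covariate there were 868 rises and 333 falls, 1551 calls in aged controls and 346 for ZT0.

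The replicate block, with only the arrays compared, gave 571 rises and 330 falls. Only 2 of 5 same-numbered pairs correlated over 0.1 and 1 of 5 arrays correlated best with its own number, so the numbers do not pair the samples.

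Leaving out 1 array at a time gave 216 to 693 rises and 99 to 275 falls, 2 to 4 higher and 0 to 2 lower genes at the flanking times, 40 to 289 for ZT0, 0 to 2 for ZT12, 0 to 94 for diet and 0 to 0 for age. It gave 1552 (without ZT0 replicate 1) to 4429 in adult controls. In aged CR it gave 381 (without ZT12 replicate 3) to 1614 (without ZT0 replicate 2), with 695 without ZT12 replicate 2. In aged controls it gave 234 (without ZT12 replicate 3) to 982, with 242 and 388 without ZT0 replicates 3 and 2, and 329 and 430 without ZT12 replicates 4 and 2.

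With 5 arrays a group, changes of 0.5 were recovered in fewer simulated cases than changes of 1. Dim genes such as Gjb2 (5.17 at ZT0 and 4.58 at ZT12) lie near the filter value of 4.735, where a change is understated.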

Other observations

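Genes of receptor feedback and of stress defence outside the groups described above also differed between ZT12 and ZT0 in adult CR mice. Beside the counts given here, 5.86% of all genes tested passed. Spry2 and Spred1, feedback inhibitors of growth factor signalling through the MAP kinases, rose by 0.87 ± 0.24 and 0.72 ± 0.15 (adjusted p 0.0177 and 0.000727, limma), the only 2 of 14 tested genes of that list that passed. Spry2 ranged from 7.84 to 8.04 at ZT0 and from 8.35 to 9.27 at ZT12. Sod2, the mitochondrial superoxide dismutase, rose by 0.61 ± 0.13, whereas Txnrd1, a thioredoxin reductase, fell by 0.85 ± 0.27, a call lost in 7 of the 10 fits without 1 array, and the other 13 of 15 genes of the oxidative stress response did not pass. Eef2k, the kinase that slows translation elongation, rose by 0.87 ± 0.23, the only 1 of 15 translation genes tested that passed, a share near that of all genes. The Notch ligand gene Dll1 (0.56 ± 0.17) and Wnt10a (0.63 ± 0.18) rose, the only 2 of 14 tested Notch and Wnt genes that passed. Dll1 lost its call in 5 of the 10 fits without 1 array and Wnt10a in 3, and neither was called without ZT0 replicate 4 or ZT12 replicate 1.

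The defensins Defb1 and Defb6 differed in direction. Defb1 read 8.08, 7.68, 8.26, 7.85 and 8.42 at ZT0 and 8.51, 9.23, 9.81, 8.63 and 9.54 at ZT12, and rose by 1.09 ± 0.30 (adjusted p 0.0188, limma). Defb6 ranged from 8.81 to 10.21 at ZT0 and from 7.20 to 8.77 at ZT12, and fell by 1.57 ± 0.46 (adjusted p 0.0242). The groups did not overlap for either gene. Defb1 lost its call in 3 and Defb6 in 5 of the 10 fits without 1 array, and neither was called without ZT0 replicate 4 or ZT12 replicate 3. Irf1, a transcription factor of the interferon response, fell by 1.04 ± 0.26, and Usp18, which damps that response, rose by 1.23 ± 0.31 with ZT0 values spread from 5.31 to 8.72. Without ZT0 replicate 4 neither Irf1 nor Usp18 was called, and Usp18 was not called without ZT0 replicate 1 either. The other 7 of 9 interferon genes tested did not pass, where 5.86% of all genes tested passed.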
